A study of Homo sapiens with 8 samples.

Results

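The TAM family comprises the receptor tyrosine kinases AXL, TYRO3 and MERTK, and GAS6 and PROS1 are its ligands. The members were taken by gene symbol from this list of 5 names, and 4 of them, AXL, TYRO3, GAS6 and PROS1, were analysed among the 13771 genes measured. MERTK was not analysed here. The members were picked with their HOTAIR differences known, so those differences are given as a description without a test. The differences between the cell lines were tested, but on the same libraries. The p-values of these tests are therefore not free of that choice. This holds most for AXL and PROS1, which had the largest HOTAIR differences.

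RNA-seq was done on 2 human breast epithelial lines, the non-tumorigenic line MCF10A and its derivative DCIS.COM, which grows in mice as lesions like ductal carcinoma in situ. A stable lentiviral pCDH insert, either with the long noncoding RNA HOTAIR (pCDH-HOTAIR) or empty (pCDH-empty), was introduced into both lines, which gave 4 groups of 2 libraries and 8 libraries in total. All groups went through selection in puromycin at 10 µg/ml and were grown in DMEM/F-12 with 5% horse serum. The MCF10A medium also held epidermal growth factor, hydrocortisone, insulin and cholera toxin, so the cell line and its medium cannot be told apart in any comparison of the lines. The sources used here do not say whether the transduced cells were a pool or a clone, or whether the libraries of a group came from separate cultures, and the p-values therefore measure only the spread between these libraries, which may be technical.

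The values are log2 CPM, the log2 of read counts scaled to library size, as normalized by the authors. Between 19306864 and 34884841 reads stood behind each library. HOTAIR, the transduced gene, had 45 and 40 reads in MCF10A pCDH-empty against 4614 and 4827 in MCF10A pCDH-HOTAIR, and 119 and 140 reads in DCIS.COM pCDH-empty against 7166 and 6385 in DCIS.COM pCDH-HOTAIR, which is the order of the labels. DCIS.COM pCDH-empty library 1 stood apart from its group. Its Euclidean distance over all genes was 46.4 log2 units to its own replicate, against 22.3 to 30.1 among the other 3 DCIS.COM libraries, and calls of named genes that are lost without it are given with both values. All 8 breast epithelial markers checked (KRT5, KRT14, KRT17, TP63, CDH1, EPCAM, CDH3 and ITGB4) were measured in both lines, with a lowest single value of 11.8 CPM for TP63.

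TAM receptors carry immunoglobulin-like and fibronectin type III domains outside the cell and a tyrosine kinase inside it. Their ligands are vitamin K-dependent proteins that bind phosphatidylserine on apoptotic cells and membranes through a gamma-carboxylated domain and the receptors through their other end. GAS6 binds all 3 receptors, with the highest affinity for AXL, while PROS1 (protein S), better known as a plasma anticoagulant, acts on TYRO3 and MERTK. In epithelial cancers AXL is known for its association with mesenchymal traits, invasion and resistance to drugs.

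By the GENCODE 44 annotation on GRCh37 (hg19), the build to which the authors aligned the reads, AXL lies on the plus strand at chr19:41725128-41767671 and TYRO3 on the plus strand at chr15:41849873-41875787. GAS6 lies on the minus strand at chr13:114523522-114567049, where GAS6-AS1 overlaps it on the other strand, as an unnamed noncoding gene overlaps AXL. PROS1 lies on the minus strand at chr3:93591895-93698847. The sources used here do not state whether strand was used in counting, nor how reads shared with the pseudogenes TYRO3P and PROS2P were assigned, so the levels of all 4 genes may include reads of these neighbours or copies.

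The sequence upstream of RefSeq start sites is shown because the 4 genes differed in how they moved between the lines. Each run holds the 250 bases before the start site, read 5′ to 3′ on the strand of the gene, as RefSeq gives them and as found by an exact match in GRCh37. The capitals mark 3 motifs searched on both strands, the GC box GGGCGG, the AP-1 site TGANTCA and the TEAD site GGAATG.
AXL, first start site: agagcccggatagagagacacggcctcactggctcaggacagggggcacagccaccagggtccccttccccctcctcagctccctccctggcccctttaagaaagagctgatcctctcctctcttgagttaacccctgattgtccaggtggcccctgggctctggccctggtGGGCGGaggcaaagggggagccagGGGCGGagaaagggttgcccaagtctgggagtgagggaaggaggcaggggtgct
AXL, second start site: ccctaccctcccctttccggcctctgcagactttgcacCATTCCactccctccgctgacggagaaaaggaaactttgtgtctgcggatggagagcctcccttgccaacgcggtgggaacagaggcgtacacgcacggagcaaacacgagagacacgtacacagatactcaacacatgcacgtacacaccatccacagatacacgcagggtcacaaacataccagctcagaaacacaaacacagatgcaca
TYRO3, first start site: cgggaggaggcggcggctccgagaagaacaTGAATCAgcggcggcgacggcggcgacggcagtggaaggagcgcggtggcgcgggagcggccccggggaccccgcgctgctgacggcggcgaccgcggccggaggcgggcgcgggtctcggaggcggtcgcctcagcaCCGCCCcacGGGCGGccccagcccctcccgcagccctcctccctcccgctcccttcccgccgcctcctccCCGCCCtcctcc
GAS6: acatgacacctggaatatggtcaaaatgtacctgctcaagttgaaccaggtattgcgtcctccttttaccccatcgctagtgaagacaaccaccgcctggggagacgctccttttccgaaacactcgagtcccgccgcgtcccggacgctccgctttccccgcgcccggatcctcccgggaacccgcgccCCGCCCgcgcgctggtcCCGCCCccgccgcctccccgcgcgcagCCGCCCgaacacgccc
PROS1: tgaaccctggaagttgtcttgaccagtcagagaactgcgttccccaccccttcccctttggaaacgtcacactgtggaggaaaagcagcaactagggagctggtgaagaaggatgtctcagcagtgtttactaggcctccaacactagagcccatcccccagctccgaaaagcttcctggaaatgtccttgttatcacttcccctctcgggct
The AXL runs lie at chr19:41724878-41725127, ahead of the annotated gene, and at chr19:41732410-41732659, in an intron of AXL. The TYRO3 run lies at chr15:41851160-41851409, inside the gene and outside its annotated exons. The GAS6 run lies at chr13:114567050-114567299, of which 184 bases fall in exons of the divergent noncoding gene GAS6-DT. The PROS1 run lies at chr3:93692778-93692990, in an intron, and leaves out the 37 bases next to the start site, which another PROS1 transcript has as untranslated exon.

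The GC box occurred 2 times upstream of the first AXL start site, 3 times upstream of TYRO3 and 3 times upstream of GAS6. It occurred 2 times upstream of PROS1, in the 37 bases not shown. Of 35116 RefSeq windows of the same length, 42.6% held at least 1 GC box, 6.57% an AP-1 site and 11.9% a TEAD site. One AP-1 match lay upstream of TYRO3, and a single TEAD match lay upstream of the second AXL start site. The windows also differed in CG dinucleotides, with 4 upstream of the first AXL start site, 9 for PROS1, 31 for GAS6 and 39 for TYRO3, against a median of 11 over all windows. The second AXL start site had 13 and no GC box, and a second TYRO3 start site, whose sequence is not shown, had 8 and no GC box. A match of letters is a description and not a binding site.

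AXL, the receptor that binds GAS6 most tightly, was lowest in MCF10A with the empty vector. Its log2 CPM was 2.36 and 1.99 in MCF10A pCDH-empty, 3.31 and 3.21 in MCF10A pCDH-HOTAIR, 4.13 and 3.49 in DCIS.COM pCDH-empty, and 3.62 and 3.52 in DCIS.COM pCDH-HOTAIR. These values rest on 104 to 523 reads per library. Both MCF10A pCDH-empty libraries lay below all 6 others, and both MCF10A pCDH-HOTAIR libraries lay below all 4 DCIS.COM libraries. The ascending order of the group means was thus MCF10A pCDH-empty (2.18 ± 0.26, SD, n = 2), MCF10A pCDH-HOTAIR (3.26 ± 0.069), DCIS.COM pCDH-HOTAIR (3.57 ± 0.071) and DCIS.COM pCDH-empty (3.81 ± 0.45). The first 3 neighbours in this order did not overlap, while the last 2 groups did.

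TYRO3, the receptor shared by both ligands, varied least of the 4 genes. Its log2 CPM was 4.27 and 4.24 in MCF10A pCDH-empty, 4.23 and 4.25 in MCF10A pCDH-HOTAIR, 4.88 and 4.71 in DCIS.COM pCDH-empty, and 4.69 and 4.67 in DCIS.COM pCDH-HOTAIR, from 363 to 914 reads per library. All 4 DCIS.COM libraries lay above all 4 MCF10A libraries. Within MCF10A the vectors overlapped, and within DCIS.COM both pCDH-empty libraries lay just above both pCDH-HOTAIR libraries.

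GAS6, the ligand common to the family, was high in MCF10A and low in DCIS.COM with either vector. Its log2 CPM was 6.51 and 6.69 in MCF10A pCDH-empty, 6.56 and 6.76 in MCF10A pCDH-HOTAIR, 3.39 and 3.47 in DCIS.COM pCDH-empty, and 3.42 and 3.37 in DCIS.COM pCDH-HOTAIR. The reads numbered 1825 to 2833 per MCF10A library and 296 to 379 per DCIS.COM library. The lines were far apart and the vectors overlapped within each line.

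PROS1 (protein S) had the widest range of the members. Its log2 CPM was 5.66 and 5.63 in MCF10A pCDH-empty, 5.64 and 5.63 in MCF10A pCDH-HOTAIR, 0.95 and 1.34 in DCIS.COM pCDH-empty, and 2.21 and 2.28 in DCIS.COM pCDH-HOTAIR. The 4 MCF10A libraries, with 965 to 1574 reads, lay within 0.1 log2 units of each other. The DCIS.COM pCDH-empty libraries had only 56 and 66 reads of PROS1, and both DCIS.COM pCDH-HOTAIR libraries, with 162 and 160 reads, lay above them. The ascending order was DCIS.COM pCDH-empty (1.15 ± 0.28, SD, n = 2), DCIS.COM pCDH-HOTAIR (2.24 ± 0.045), and the MCF10A groups together at 5.63 ± 0.011 and 5.64 ± 0.023.

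**Figure D1:**
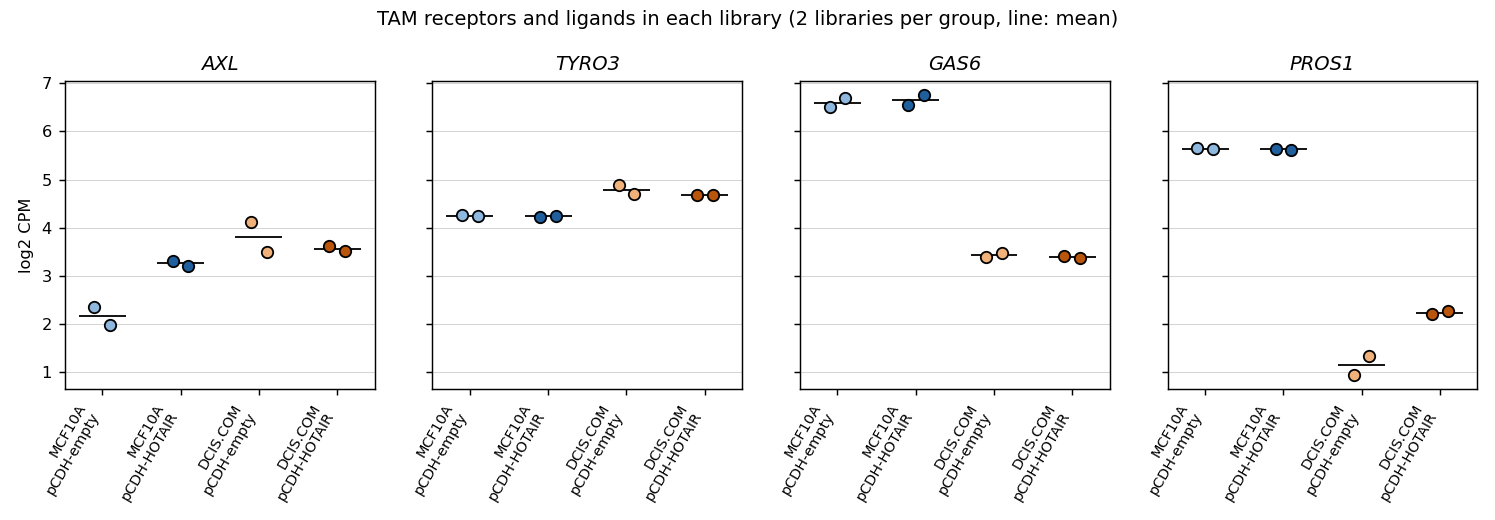
Level of AXL, TYRO3, GAS6 and PROS1 in each library, with log2 CPM on the vertical axis, one point per library and a line at the mean of the 2 libraries of each group. GAS6 and PROS1 are high in all 4 MCF10A libraries and low in all 4 DCIS.COM libraries, whereas AXL is lowest in MCF10A pCDH-empty at 2.36 and 1.99.

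The first comparison asked how the members differed between the cell lines without HOTAIR. In the pCDH-empty libraries both ligands were lower and AXL was higher in DCIS.COM than in MCF10A. PROS1 was 22.6-fold lower (log2 fold change -4.50, SE 0.13) and GAS6 8.97-fold lower (log2 fold change -3.17, SE 0.098), with adjusted p-values of 5.33e-08 and 6.75e-08 (limma, Benjamini-Hochberg over all genes). AXL was 3.10-fold higher (log2 fold change 1.63, SE 0.21, limma adjusted p = 0.000197). The log2 fold change of AXL was 1.32 without DCIS.COM pCDH-empty library 1 and that of PROS1 was -4.30, and both still passed. TYRO3 was 1.45-fold higher (log2 fold change 0.54, SE 0.085, limma adjusted p = 0.000634), which is under the 1.5-fold set for a call.

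A gene was called at an adjusted p under 0.05 with at least a 1.5-fold change. By this rule 3 of the 4 members were called in the pCDH-empty libraries, AXL higher and GAS6 and PROS1 lower, where 46.3% of all 13771 genes were called, 22.5% higher and 23.8% lower. The lines thus differed at a large share of genes, and the size of each member's difference is set beside those of all genes. Among all genes, 4.27% had a larger absolute difference than PROS1, 7.76% a larger one than GAS6, 16.1% a larger one than AXL and 50.2% a larger one than TYRO3. In cultures of this kind, fewer cells that express a gene and less RNA per cell cannot be told apart.

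With HOTAIR in both lines the ligands differed in the same direction and AXL did not pass the test. In the pCDH-HOTAIR libraries GAS6 was 9.59-fold lower in DCIS.COM (log2 fold change -3.26, SE 0.098, limma adjusted p = 6.12e-08). PROS1 was 10.5-fold lower (log2 fold change -3.39, SE 0.13, limma adjusted p = 1.95e-07). AXL had a log2 fold change of 0.31 (95% confidence interval -0.18 to 0.79, limma adjusted p = 0.226), although both DCIS.COM libraries lay above both MCF10A libraries. TYRO3 was 1.36-fold higher (log2 fold change 0.44, SE 0.085, limma adjusted p = 0.00204), again under 1.5-fold. Of the 4 members, 2 were called here, both lower, against 43.7% of all genes, 22.0% higher and 21.7% lower.

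Over 9 other settings of the fit, the AXL difference between the pCDH-HOTAIR libraries kept a log2 fold change of 0.28 to 0.38, with limma adjusted p-values from 0.0165 to 0.259, and never reached 1.5-fold. The cell line difference of AXL was 1.63 without HOTAIR and 0.31 with it, and that of PROS1 was -4.50 and -3.39. These pairs of values use the same libraries as the HOTAIR differences, and their difference was not tested.

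**Figure D2:**
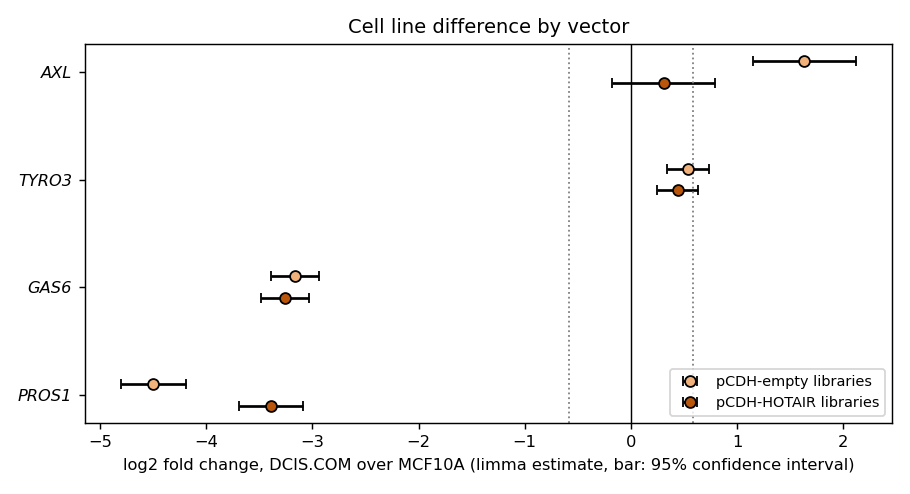
Log2 fold change of DCIS.COM over MCF10A for each gene on the horizontal axis, with points for the pCDH-empty and the pCDH-HOTAIR libraries, bars for the 95% confidence interval from limma and dotted lines at 1.5-fold. GAS6 lies at -3.17 and -3.26 and PROS1 at -4.50 and -3.39, while the AXL interval spans 0 in the pCDH-HOTAIR libraries.

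Markers of other cell types moved with GAS6 and PROS1 between the lines. Of 10 macrophage markers 3 were measured (CD14, CD68 and CSF1R), with a summed level of 50.7 to 55.0 CPM in MCF10A and 5.78 to 6.88 CPM in DCIS.COM. Of 9 fibroblast markers 3 were measured (FAP, COL1A1 and COL1A2), with a summed level of 88.6 to 121 CPM in MCF10A and 1.63 to 2.93 CPM in DCIS.COM. The summed level of the 8 epithelial markers was 10041 to 11411 CPM in MCF10A and 3326 to 3996 CPM in DCIS.COM, although EPCAM, ITGB4 and TP63 were called higher in DCIS.COM. The one endothelial marker of 8 that was measured, PECAM1, ran the other way, with 1.70 to 2.69 CPM in MCF10A and 10.1 to 13.3 CPM in DCIS.COM. The defining leukocyte marker PTPRC and the fibroblast markers PDGFRA, DCN and LUM were not analysed here. The part of these markers in the ligand differences was not tested.

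The second comparison was between pCDH-HOTAIR and pCDH-empty within each line, which is the contrast the study was built on. In MCF10A the AXL mean was higher with HOTAIR by 1.09 log2 units (SE 0.21), and the groups did not overlap. With each of the 4 MCF10A libraries left out in turn this difference ran from 0.90 to 1.27. The other members lay close to 0 in MCF10A, with -0.015 for TYRO3, 0.060 for GAS6 and -0.010 for PROS1, and their groups overlapped. In either line, a lack of overlap between groups of 2 libraries is weak evidence of a difference. The groups of RAC1 and CRK, for instance, also did not overlap in MCF10A, at log2 fold changes of only 0.013 and 0.023. The share of all genes without overlap is not given here. The summed level of the 3 fibroblast markers was 88.6 and 99.4 CPM in MCF10A pCDH-empty and 107 and 121 CPM in MCF10A pCDH-HOTAIR, while the macrophage sums overlapped. FAP made up most of this sum, and the smaller COL1A1 and COL1A2 were higher by 0.90 and 0.93 log2 units, with no overlap and limma adjusted p-values of 0.36 and 0.557. The part of these markers in the AXL difference was not tested. Over all genes 0.0218% were called in this contrast, 3 of 13771.

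In DCIS.COM it was PROS1 whose mean was higher with HOTAIR, by 1.10 log2 units (SE 0.13). The groups did not overlap, and the difference ran from 0.90 to 1.29 with each DCIS.COM library left out in turn, the 0.90 being the value without DCIS.COM pCDH-empty library 1. AXL differed by -0.24 with overlapping groups, and by 0.078 without DCIS.COM pCDH-empty library 1, so its sign rests on that library. TYRO3 differed by -0.11 with no overlap, and by -0.026 when DCIS.COM pCDH-empty library 1 was left out. GAS6 differed by -0.036 with overlap. The summed fibroblast markers stood at 1.63 and 2.31 CPM in DCIS.COM pCDH-empty and at 2.93 and 2.38 CPM in DCIS.COM pCDH-HOTAIR, with overlapping macrophage sums, and their part in the PROS1 difference was not tested. Over all genes 0.0871% were called in this contrast, 12 of 13771. Each HOTAIR difference shares its pCDH-empty libraries with the first cell line comparison, so the 2 kinds of difference are not independent.

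**Figure D3:**
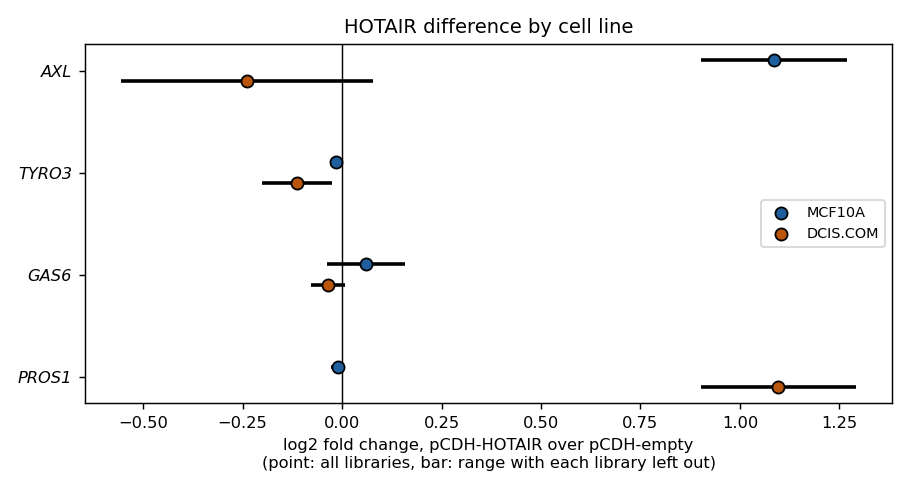
Log2 fold change of pCDH-HOTAIR over pCDH-empty for each gene on the horizontal axis, in MCF10A and in DCIS.COM, with bars from the lowest to the highest value when each library is left out in turn. AXL in MCF10A (1.09) and PROS1 in DCIS.COM (1.10) lie far from 0, and the bar of AXL in DCIS.COM crosses it.

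Levels of different genes were compared as CPM per kilobase (kb) of the canonical transcript. Both ligands were above both receptors in MCF10A, whereas in DCIS.COM PROS1 was below both receptors, and GAS6 was above them by this length and below them by the summed length of all annotated exons. GAS6 stood at 38.7 ± 3.4 CPM per kb (SD, n = 2) in MCF10A pCDH-empty, 40.3 ± 3.9 in MCF10A pCDH-HOTAIR, 4.28 ± 0.18 in DCIS.COM pCDH-empty and 4.17 ± 0.12 in DCIS.COM pCDH-HOTAIR. PROS1 stood at 14.8 ± 0.24, 14.7 ± 0.11, 0.641 ± 0.13 and 1.38 ± 0.044 CPM per kb in the same order. GAS6 was above PROS1 in every library, and the order of these ligands held in every group under each length tried. GAS6 made up 70.8% to 74.7% of the ligand sum in the 4 MCF10A libraries, 88.3% and 85.8% in DCIS.COM pCDH-empty, and 75.9% and 74.3% in DCIS.COM pCDH-HOTAIR.

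Of the receptors, TYRO3 was above AXL in MCF10A pCDH-empty. AXL stood at 0.951 ± 0.17 CPM per kb in MCF10A pCDH-empty, 2.02 ± 0.098 in MCF10A pCDH-HOTAIR, 3.03 ± 0.93 in DCIS.COM pCDH-empty and 2.51 ± 0.12 in DCIS.COM pCDH-HOTAIR. TYRO3 stood at 2.37 ± 0.028, 2.34 ± 0.015, 3.45 ± 0.30 and 3.18 ± 0.026 CPM per kb in the same order. AXL made up 31.0% and 26.1% of the sum of both receptors in MCF10A pCDH-empty and 42.3% to 50.2% in the 6 other libraries. With the length of all annotated exons together in place of the canonical transcript, AXL was above TYRO3 in MCF10A pCDH-HOTAIR and DCIS.COM pCDH-empty, so the order of the receptors there depends on the length taken.

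The ratio of the ligand sum to the receptor sum, each in CPM per kb, was 14.8 and 17.5 in MCF10A pCDH-empty and 11.8 and 13.4 in MCF10A pCDH-HOTAIR. It was 0.640 and 0.914 in DCIS.COM pCDH-empty and 0.967 and 0.985 in DCIS.COM pCDH-HOTAIR. All 4 DCIS.COM libraries were thus below 1, and the lines did not overlap. By summed exon length the ratio was 6.86 to 10.5 in MCF10A and 0.341 to 0.569 in DCIS.COM, so its size depends on the length taken. The receptor sum covers AXL and TYRO3 without MERTK.

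Among the receptor tyrosine kinases, 34 of 58 listed genes were measured, and the TAM receptors were in the middle to lower part of their range of CPM per kb. TYRO3 ranked 17 in MCF10A pCDH-empty, 19 in MCF10A pCDH-HOTAIR and 21 in both DCIS.COM groups. AXL ranked 23 in MCF10A pCDH-empty, 20 in MCF10A pCDH-HOTAIR, 23 in DCIS.COM pCDH-empty and 22 in DCIS.COM pCDH-HOTAIR.

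The neighbours in rank were often within the spread of the TAM receptors. In MCF10A pCDH-empty TYRO3 stood between EPHB3 (3.04 ± 0.077) and CSF1R (2.30 ± 0.22), of which CSF1R was within the spread, and AXL between EPHA4 (1.47 ± 0.013) and EPHB2 (0.890 ± 0.022), of which EPHB2 was within it. In MCF10A pCDH-HOTAIR CSF1R (2.37 ± 0.45) was next above TYRO3, and ROR1 (1.96 ± 0.055) was next below AXL and within its spread. In DCIS.COM pCDH-empty INSR (3.50 ± 0.23) and EPHA4 (3.12 ± 0.21) enclosed TYRO3, and EPHA4 and STYK1 (1.67 ± 0.099) enclosed AXL. In DCIS.COM pCDH-HOTAIR INSR (3.34 ± 0.13) was next above TYRO3, and FGFR1 (2.50 ± 0.20) was next below AXL and within its spread.

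Of the 34 receptor tyrosine kinases 18 were called higher and 6 lower in DCIS.COM in the pCDH-empty libraries, or 70.6% against 46.3% of all genes. Their median log2 fold change was 0.63, beside a median of about 0 over all genes. In the pCDH-HOTAIR libraries 17 were called higher and 6 lower, or 67.6% against 43.7%, with a median of 0.53. AXL was among the genes called higher without HOTAIR and not among those called with it. TYRO3 thus ranked lower in DCIS.COM than in MCF10A although its own level was higher there.

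**Figure D4:**
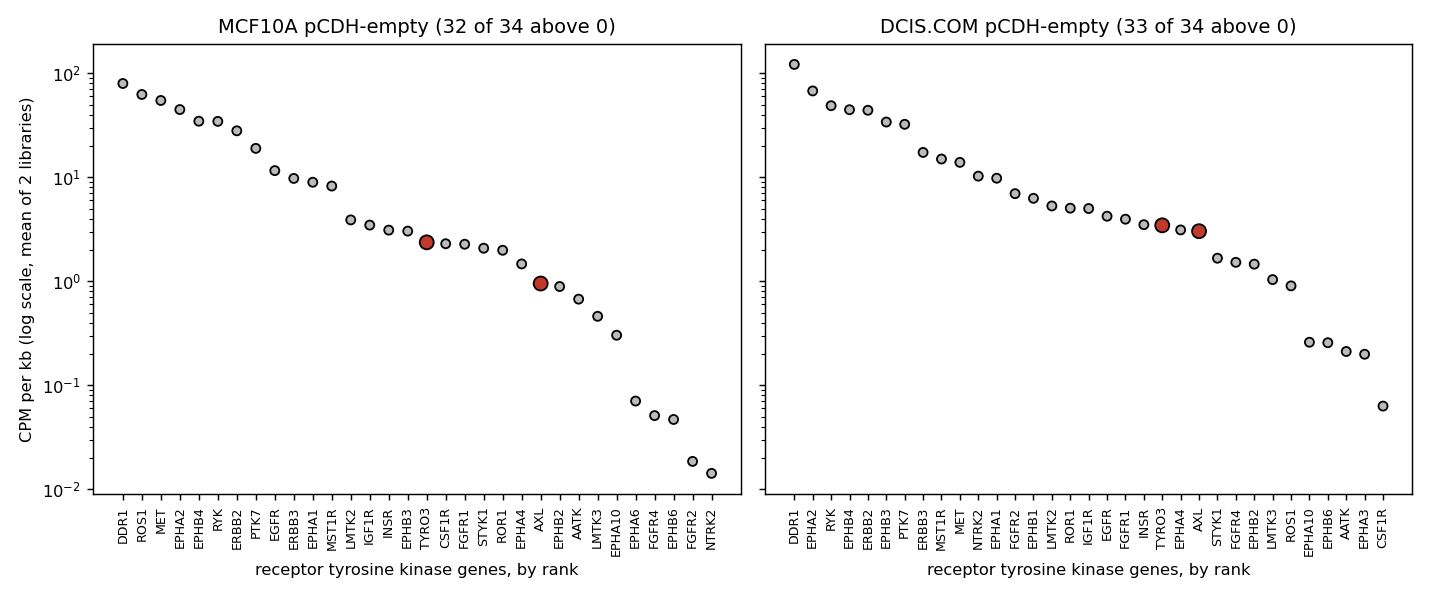
Level of the measured receptor tyrosine kinases in the pCDH-empty groups, ordered by rank on the horizontal axis, with CPM per kb on a logarithmic vertical axis, one point for the mean of 2 libraries and larger red points for AXL and TYRO3. TYRO3 ranks 17 and AXL 23 of 34 in MCF10A, and they rank 21 and 23 in DCIS.COM.

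The other genes of the pathway were taken from 8 lists chosen by role, with 80 names of which 68 were measured. In the pCDH-empty libraries 15 of the 68 were called higher in DCIS.COM and 20 lower, or 51.5% against the 46.3% of all genes. Without DCIS.COM pCDH-empty library 1, 31 of these 35 were called. In the pCDH-HOTAIR libraries 12 were called higher and 22 lower, or 50% against 43.7%. The pathway genes were thus called about as often as genes in general. For HOTAIR over empty vector 0 of the 68 were called by limma in either line, and limma-voom on the recovered reads also called 0. At an unadjusted p under 0.05 there were 8 in MCF10A, 11.8% against 7.28% of all genes, and 15 in DCIS.COM, 22.1% against 17.5%.

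GAS6 and PROS1 become active only after gamma-carboxylation, for which GGCX is the enzyme and VKORC1 and NQO1 are linked to the recycling of vitamin K. Of 5 genes of this step and of propeptide processing, 2 were called higher in DCIS.COM in the pCDH-empty libraries and none lower. This is 40% of the list, against 46.3% of all genes. NQO1 had 131 to 140 CPM in MCF10A and 456 to 596 CPM in DCIS.COM (4.49-fold, limma adjusted p = 3.22e-08). GGCX was 1.59-fold higher (log2 fold change 0.66, SE 0.065, limma adjusted p = 4.05e-05). In the pCDH-HOTAIR libraries NQO1 alone was called, with a 3.25-fold difference, and GGCX was 1.37-fold higher. That is 20% of the list, against 43.7% of all genes. VKORC1 was 1.43-fold higher in the pCDH-empty libraries and was not called. VKORC1L1 and FURIN, by contrast, had log2 fold changes of -0.41 and -0.14 in the pCDH-empty libraries and were not called.

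AXL and other receptors are shed from the cell surface by ADAM10 and ADAM17. Of 5 shedding genes only TIMP3, an inhibitor of ADAM17 and other metalloproteinases, was called, in both cell line comparisons. This is 20% of the list, against 46.3% and 43.7% of all genes. TIMP3 had 104 to 129 CPM in MCF10A and 396 to 537 CPM in DCIS.COM, a log2 fold change of 2.22 (SE 0.097) in the pCDH-empty libraries and 1.77 in the pCDH-HOTAIR libraries (limma adjusted p = 3.74e-07 and 1.35e-06). TIMP3 and AXL were both called higher in DCIS.COM without HOTAIR, and a link between them was not tested.

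AXL is known to cooperate with other receptor tyrosine kinases. All 4 measured partners of 5 were called in both comparisons, 2 lower and 2 higher in DCIS.COM. Of all genes 46.3% were called in the pCDH-empty libraries and 43.7% in the pCDH-HOTAIR libraries, and 4 genes are too few to set against these shares. MET, the receptor of hepatocyte growth factor, had 352 to 385 CPM in MCF10A and 89.8 to 100.1 CPM in DCIS.COM (3.94-fold lower in the pCDH-empty libraries, limma adjusted p = 1.66e-07). EGFR, the receptor of the epidermal growth factor that was added to the MCF10A medium only, was 2.74-fold lower (adjusted p = 3.06e-05, limma). ERBB3 was 1.78-fold higher and ERBB2 1.57-fold higher (limma adjusted p = 1.78e-05 and 0.000162), and ERBB2 fell to 1.45-fold, under the threshold, without DCIS.COM pCDH-empty library 1. In the pCDH-HOTAIR libraries the log2 fold changes were -1.88 for MET, -1.72 for EGFR, 1.13 for ERBB3 and 0.68 for ERBB2. The measured ERBB family members thus differed in direction, EGFR being lower and ERBB2 and ERBB3 higher.

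Of 9 genes for transcription factors reported to act on AXL, 3 were called in each comparison (33.3%, against 46.3% and 43.7% of all genes). TEAD1, SP3 and SP1 also had a limma adjusted p under 0.05 in the pCDH-empty libraries, at 1.33-fold or less. JUN, a subunit of AP-1, had 86.3 to 124 CPM in MCF10A and 6.72 to 8.15 CPM in DCIS.COM, a 12.4-fold difference in the pCDH-empty libraries and 16.9-fold in the pCDH-HOTAIR libraries (limma adjusted p = 1.03e-07 and 6.22e-08). YAP1, the coactivator of the TEAD factors, was 2.01-fold and 1.81-fold lower in DCIS.COM. TEAD4 was 1.61-fold higher in the pCDH-empty libraries (limma adjusted p = 0.00219), or 1.40-fold and not called without DCIS.COM pCDH-empty library 1, and 1.25-fold higher in the pCDH-HOTAIR libraries, where it was not called (limma adjusted p = 0.065). FOSL1, another AP-1 subunit, was called lower in the pCDH-HOTAIR libraries (1.84-fold, limma adjusted p = 0.00396) and had a log2 fold change of 0.08 in the pCDH-empty libraries. For TEAD4 and FOSL1 the difference between the comparisons was not tested. JUN and YAP1 were called lower in both comparisons.

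PROS1 also works in the protein C anticoagulant pathway, and 4 of 8 listed genes for partners of protein S were measured. All 4 were called in both comparisons, where 46.3% and 43.7% of all genes were called. TFPI, the inhibitor of tissue factor for which protein S is a cofactor, had 129 to 145 CPM in MCF10A and 13.0 to 22.6 CPM in DCIS.COM (8.55-fold lower in the pCDH-empty libraries, limma adjusted p = 2.90e-06). PROCR, the endothelial protein C receptor, was 3.08-fold lower (limma adjusted p = 2.88e-06). In the pCDH-HOTAIR libraries TFPI was 5.89-fold lower and PROCR 3.03-fold lower.

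THBD (thrombomodulin) and F5 (coagulation factor V) were near the limit of detection in one of the lines. THBD had 164 to 234 reads in the MCF10A libraries, against 2 reads in DCIS.COM pCDH-empty library 1 and 0 in the other 3 DCIS.COM libraries. F5 ran the other way, with 0 to 2 reads per MCF10A library and 106 to 167 reads per DCIS.COM library. No fold change is given for them. Of the partners measured, THBD, TFPI and PROCR were thus lower together with PROS1, and F5 was higher.

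**Figure D5:**
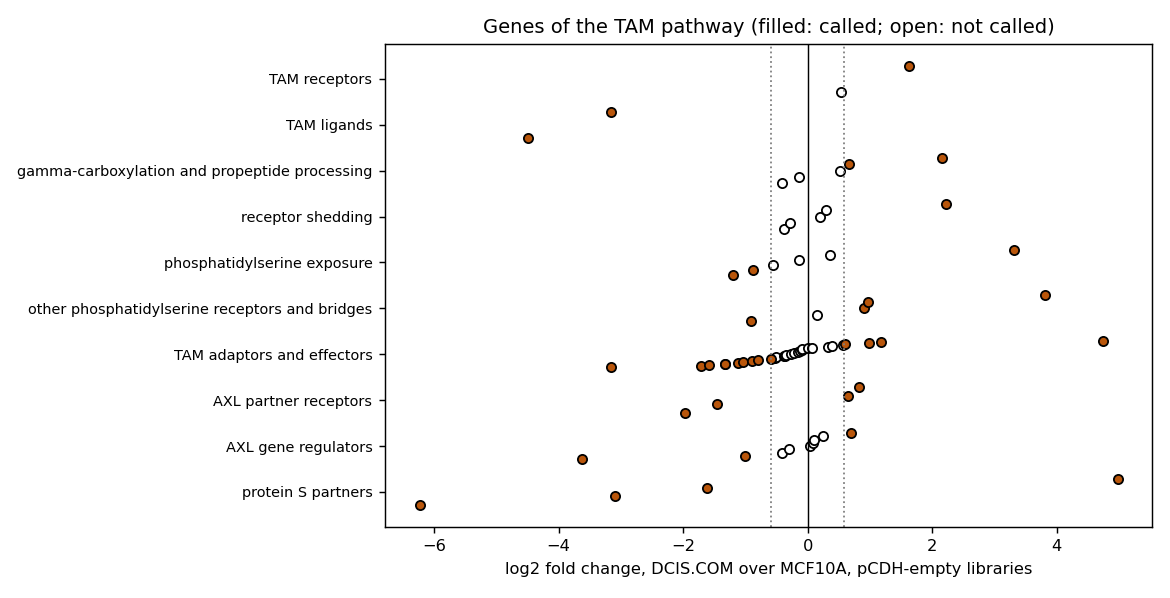
Log2 fold change of DCIS.COM over MCF10A in the pCDH-empty libraries on the horizontal axis for each measured gene of the TAM receptors, ligands and 8 pathway lists, one point per gene, filled where called and with dotted lines at 1.5-fold. Of the 68 other pathway genes 15 are called higher and 20 lower.

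The genes whose log2 CPM over the 8 libraries was most like that of a member were found by Pearson's r, as a description. For AXL they were SHANK3 (r = 0.985), PCDHAC2 (r = 0.970) and UPK1B (r = 0.963), and only 7 of 5518 genes compared reached an r of 0.95. SHANK3, like AXL, was lowest in MCF10A pCDH-empty, with a mean log2 CPM of -0.02 in MCF10A pCDH-empty, 1.09 in MCF10A pCDH-HOTAIR, 1.54 in DCIS.COM pCDH-empty and 1.56 in DCIS.COM pCDH-HOTAIR. The spread of AXL between replicates (SD 0.26 in MCF10A pCDH-empty and 0.45 in DCIS.COM pCDH-empty) can lower its r with any gene. The count at this r therefore does not show how rare the pattern of AXL is.

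The remaining members mainly followed the split between the lines. For PROS1 the likest genes were TRIM22, SAA2 and SLPI (each r = 0.999), with 602 of 1168 genes compared at an r of at least 0.95. TRIM22 had a mean log2 CPM of 1.58 in DCIS.COM pCDH-empty and 2.81 in DCIS.COM pCDH-HOTAIR, and 6.44 and 6.29 in the MCF10A groups. For GAS6 they were HS3ST3A1, BMERB1 and BMP1, with 836 of 1591 genes at that r. For TYRO3 they were RPN1, CCNF and STIP1, with 1943 of 10779. The 8 libraries fall into the clusters of the 2 lines, and genes that differ strongly between the lines in the same direction tend to have a high r.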

How the data were processed

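RNA from subconfluent MCF10A and DCIS.COM cells (RNeasy, ScriptSeq v2 libraries) was read as paired ends of 76 nt. The authors aligned reads to hg19 with Rsubread, counted them on UCSC known genes with featureCounts, normalized them with edgeR and deposited log2 CPM for 13771 genes, 343 of which had no symbol. The prior count and the use of strand are not given in the sources used here. Back on the linear scale, values rose in equal steps from a prior of 0.0717 CPM, and 100% gave whole reads within a tolerance of 0.1 read, from 19306864 to 34884841 per library. The lowest depth, in MCF10A pCDH-HOTAIR, leaves the largest counting error for genes with few reads. No per-sample column was left unused.

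Group means were fitted to the deposited log2 CPM of all 8 libraries with limma 3.58.1 in R 4.3.3 (eBayes with a mean-variance trend). Benjamini-Hochberg adjustment was over all genes. The fit was tested on simulated data beforehand. Of the calls there, 0.40% and 0.71% were false for the cell line contrasts without and with HOTAIR. For HOTAIR over empty vector, 10.2% were false in MCF10A and 5.27% in DCIS.COM. A call needed an adjusted p under 0.05 and a 1.5-fold change. An exact permutation of 2 libraries against 2 cannot go below a two-sided p of 0.333 and was not used. The members and lists were chosen with earlier results of these data known. The members, called genes of 5 role lists (up to 4 per list and contrast), the 3 likest genes per member and the receptor kinases next in rank were named. Likeness was taken among genes with a symbol, a mean log2 CPM of at least 0 and an SD of at least 0.5 times that of the member. The table was expected to hold gene lengths and has none, so the canonical transcript of GENCODE 44 was used, chosen over the summed exons after their lengths were seen. The fit was repeated with quantile normalization or median centring, pseudocounts of 1 or 0.1, no trend, genes of mean CPM 2 or more, a block for replicate number, limma-voom on the recovered reads, 4 libraries fitted alone, other thresholds and lengths, and each library left out. Tables and plots were made with Python 3.11.15, pandas 2.3.3 and matplotlib 3.10.9.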

Additional observations from a re-analysis of the deposited data

How the results depend on the processing

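The direction of AXL, GAS6 and PROS1 between the lines, and which of them were called, held under all 9 alternative settings. TYRO3 without HOTAIR was called under quantile normalization (log2 fold change 0.59, limma adjusted p = 0.000582), and 0.45 to 0.63 with a library left out, the call coming without DCIS.COM pCDH-empty library 2. A group then has 1 library, assumed to vary like those of the other groups. Log2 fold changes over these fits ran from 1.32 to 1.95 (AXL), -3.26 to -3.07 (GAS6) and -4.69 to -4.30 (PROS1) without HOTAIR, and from 0.26 to 0.36, -3.36 to -3.16 and -3.42 to -3.36 with it, where TYRO3 ran from 0.43 to 0.45. At a log2 fold change of at least 1.5, 2418 and 2357 genes were called between the lines, and 14 pathway genes in each comparison, against 54 in each with no fold threshold. HOTAIR calls in MCF10A numbered 6 (pseudocount of 1), 5 (limma-voom), 1 (4 libraries fitted alone) and 1 (log2 fold change of at least 1.5). They numbered 51 without either DCIS.COM pCDH-empty library and 1 without any other library. HOTAIR calls in DCIS.COM numbered 6 (no trend), 1 (log2 fold change of at least 1.5) and 0 when its 4 libraries were fitted alone by limma, with 1203 genes at an unadjusted p under 0.05 there, while limma-voom over all 8 libraries gave 12, as limma did. They numbered 60 and 1403 without DCIS.COM pCDH-empty library 1 or 2, 1 without either DCIS.COM pCDH-HOTAIR library and 5 without any MCF10A library, with 0 to 5 pathway genes called. The replicate numbers did not pair the libraries (correlations of deviations from -0.016 to 0.066), and the replicate block gave 20 calls for HOTAIR in DCIS.COM in place of 12. The log2 ratio of AXL to TYRO3 in MCF10A pCDH-empty, MCF10A pCDH-HOTAIR, DCIS.COM pCDH-empty and DCIS.COM pCDH-HOTAIR was -1.33, -0.21, -0.22 and -0.35 per canonical length, -2.10, -0.98, -0.99 and -1.11 without length, and -1.03, 0.0863, 0.0811 and -0.0443 by summed exons, a length chosen after seeing the data. It ran from -1.50 to -1.15, -0.27 to -0.16, -0.45 to 0.0107 (0.0107 without DCIS.COM pCDH-empty library 2) and -0.39 to -0.30 with a library left out. The log2 ratio of PROS1 to GAS6 was -1.38, -1.45, -2.75 and -1.59 per canonical length, -0.96, -1.03, -2.32 and -1.17 without length, and -0.76, -0.83, -2.13 and -0.97 by summed exons, with -1.49 to -1.27, -1.56 to -1.35, -2.91 to -2.59 and -1.65 to -1.53 with a library left out. With 56 and 66 reads, PROS1 in DCIS.COM pCDH-empty is the member value that depth limits most.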

Other observations

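The genes named here were chosen after their values were seen. Genes that expose or recognise phosphatidylserine, the lipid through which TAM ligands bridge membranes, also differed between the lines in the pCDH-empty libraries. Of 5 measured genes for other phosphatidylserine receptors and bridges, 3 were called higher in DCIS.COM and 1 lower, against 22.5% and 23.8% of all genes. MFGE8, a secreted bridging protein, was 1.97-fold higher, with 32.0 to 38.7 CPM in MCF10A and 62.4 to 66.9 CPM in DCIS.COM (limma adjusted p = 1.03e-05). Its integrin receptor subunits went different ways, with ITGB3 14.0-fold and ITGB5 1.88-fold higher and their shared partner ITGAV 1.88-fold lower (limma adjusted p = 1.38e-05, 6.63e-06 and 0.00052). ITGB3 had only 16 and 31 reads in MCF10A pCDH-empty, so the size of its difference is uncertain. The same 4 genes were called in the same directions in the pCDH-HOTAIR libraries.

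Of 6 genes that move phosphatidylserine across the membrane, the scramblase ANO6 was 2.29-fold lower in DCIS.COM and the flippase ATP8A1 9.93-fold higher (limma adjusted p = 2.19e-06 and 5.56e-06). ATP8A1 had only 9 to 20 reads per MCF10A library, so the size of its difference is uncertain. TMEM30A, the flippase subunit, was 1.84-fold lower in the pCDH-empty libraries (limma adjusted p = 0.00727), or 1.38-fold and not called without DCIS.COM pCDH-empty library 1, and had a log2 fold change of -0.26 in the pCDH-HOTAIR libraries (limma adjusted p = 0.329). Of 30 adaptors and effectors 4 were called higher and 10 lower in the pCDH-empty libraries, or 46.7% against 46.3% of all genes. SOCS3, a suppressor of cytokine signalling, was 3.29-fold lower in DCIS.COM (limma adjusted p = 7.00e-05). ELMO1, which takes part in the engulfment of apoptotic cells, had 47 to 64 reads in the DCIS.COM libraries and 0 in all 4 MCF10A libraries, where 3 reads, the limit that a count of 0 allows, would be 0.0962 to 0.155 CPM. No fold change is given for it.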
